A study of Mus musculus with 6 samples.

Results

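The Six-family, Eya and Dach proteins form a network of transcription regulators, and 7 of its genes were described here: Six4, Six5, Eya1, Eya2, Eya3, Eya4 and Dach1. They were chosen by values measured in these same libraries, namely their estimated reads and TPM, a transcript level corrected for length and library size in Rpl22-/- against Rpl22+/+ cells. Each difference between genotypes in these 7 genes is therefore given as a description, with no test. Of the 29347 genes with any estimated read, 16656 had enough reads to be tested between genotypes, and 5 of the 7 network genes were among them. Six4 and Eya4 were below that filter.

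RNA was sequenced from CD11b+Gr1+ splenocytes of mice that carry the Mll-AF9 knockin, an allele that fuses Mll to AF9 and drives myeloid leukemia. The cells were explanted from tumor-bearing animals and purified by flow cytometry, and all 6 libraries share the knockin. There were 3 libraries of Rpl22+/+ genotype and 3 of Rpl22-/- genotype, which lack the ribosomal protein and RNA-binding protein Rpl22. The labels give no age or sex, and the study's text names a single mouse for each genotype. The libraries of a genotype may thus share an animal, and each p-value measures only the spread between libraries.

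Six-family proteins are homeodomain transcription factors that bind DNA. Eya proteins do not bind DNA themselves; they join Six-family proteins as coactivators and also act as protein phosphatases. Dach proteins are related to the Ski corepressor family and can turn the same complexes toward repression. The network is best known from the development of eye, ear, kidney and muscle, where Pax factors act beside it.

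The libraries held between 35828500 and 102866127 estimated reads, and Rpl22-/- replicate 1 was the shallowest. Rpl22 itself was at 148, 235 and 152 CPM, the read count scaled to library size, in the Rpl22+/+ libraries and at 58.3, 89.9 and 73.5 CPM in the Rpl22-/- libraries. It was lower in Rpl22-/- (log2 fold change -1.27 ± 0.25 SE, edgeR adjusted p = 0.0106), and no library went against its label. Its RNA was still detected, and which part of the gene the allele lacks is not given in the sources used here. Rpl22+/+ replicate 2 stood apart from its group, with a correlation of log2 CPM of 0.926 and 0.934 to the other two against 0.992 between those. Of the markers of the sort, Itgam, which encodes CD11b, lay between 815 and 2090 CPM in all libraries. Ly6g, which encodes a Gr1 antigen, was at 149 to 178 CPM in Rpl22+/+ and at 11.1 to 15.7 CPM in Rpl22-/-.

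Across all genes tested, 17.5% were called, that is, they had an edgeR adjusted p under 0.05 and a log2 fold change beyond 1 in size. Of all genes tested, 8.93% were called higher and 8.54% lower in Rpl22-/-, and in 46.1% the CPM of the 2 genotypes did not overlap. Among the 5 tested network genes, 1 was called higher and 2 lower, and 4 did not overlap between genotypes. These counts come from the contrast by which the genes were chosen.

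Promoter sequence from RefSeq (GRCm38.p6) was found for 5 of the 7 genes, and is shown for the lowered Dach1, the raised Six5 and the level Eya3. Each window holds 170 bases, from -250 to -81 of the annotated transcript start on the strand of the gene, and stops short of the first exons. Matches to any of 6 motifs are in capitals. The motifs were the MEF3 element TCAGGTT, to which Six-family proteins bind, the GC box GGGCGG, the CCAAT box CCAAT, the E box CACGTG, the ETS core AGGAAGT and the TATA box TATAAA, each on both strands. The Dach1 window is chr14:98169846-98170015 on the minus strand, the Six5 window chr7:19094294-19094463 on the plus strand and the Eya3 window chr4:132638796-132638965 on the plus strand.
Dach1: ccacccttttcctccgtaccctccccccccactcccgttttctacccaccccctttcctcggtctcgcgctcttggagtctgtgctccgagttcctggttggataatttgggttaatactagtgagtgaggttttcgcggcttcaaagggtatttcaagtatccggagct
Six5: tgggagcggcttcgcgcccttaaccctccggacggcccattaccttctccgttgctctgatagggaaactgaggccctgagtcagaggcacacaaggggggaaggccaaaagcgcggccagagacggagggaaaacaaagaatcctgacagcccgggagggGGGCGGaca
Eya3: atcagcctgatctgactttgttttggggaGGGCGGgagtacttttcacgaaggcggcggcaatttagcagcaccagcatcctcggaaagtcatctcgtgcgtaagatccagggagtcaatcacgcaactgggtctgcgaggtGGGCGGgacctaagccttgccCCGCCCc

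The Eya3 window held 3 GC boxes, which began at -221, -108 and -87. The Six5 window held 1 GC box, at -89, and the Dach1 window held none of the 6 motifs. A GC box was present in 19.5% of the 32851 promoter windows of this length. The MEF3 element was present in 2.46% of them and in none of these 3, and it matched at -97 in 1 of the 2 windows of Six4. The Eya3 and Six5 windows each held 11 CG dinucleotides and the Dach1 window 9, against a median of 3 over all windows. A match describes the letters of the window, not a site in use.

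Of the DNA-binding Six-family genes, Six5 was the one with measurable RNA. It encodes a homeodomain factor next to the myotonic dystrophy kinase gene Dmpk, and lies on chromosome 7 from 18828519 to 18832474 (GRCm39, plus strand). Six5 was at 1.08, 1.08 and 0.548 CPM in the Rpl22+/+ libraries and at 4.20, 2.77 and 2.32 CPM in the Rpl22-/- libraries. The genotypes did not overlap, and Rpl22-/- replicate 1 was the highest of all. The mean rose from 0.904 ± 0.308 to 3.10 ± 0.98 CPM (SD, n = 3 each), which the fit put at a log2 fold change of 1.77 ± 0.38 (SE). Per transcript length the levels were 0.377 ± 0.127 and 1.41 ± 0.532 TPM. Only 1 transcript of Six5 was matched, the protein-coding Six5-201, so all reads of the gene fell to it by annotation.

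Six4, on chromosome 12 from 73146383 to 73160230 (GRCm39, minus strand), encodes a homeodomain factor of muscle and kidney development. Salmon assigned it 3, 2 and 2 reads in Rpl22+/+ and 4, 2 and 8 reads in Rpl22-/-. The genotypes overlapped. The pooled level was 1.80 times higher in Rpl22-/-, with a 95% counting interval of 0.68 to 5.27.

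Of the Eya coactivators, Eya1 showed the widest gap between genotypes among the 7 genes. Eya1, a developmental regulator of ear and kidney, lies on chromosome 1 from 14239178 to 14380459 (GRCm39, minus strand). The Rpl22+/+ libraries held 1896, 1232 and 2109 estimated reads, or 27.0, 16.6 and 28.2 CPM. The Rpl22-/- libraries held 1, 2 and 7 reads, or 0.0267, 0.0200 and 0.0661 CPM. The first 2 of these values lie below the 3 reads taken as the detection floor, and the lowest Rpl22+/+ library was far above the highest Rpl22-/- library. Pooled over libraries, the Rpl22+/+ level was 582 times the Rpl22-/- level, with a 95% counting interval of 316 to 1210. The fitted log2 fold change was -9.15 ± 0.47 (SE), and it became -9.97 without Rpl22-/- replicate 3, which held 7 of the 10 reads of its genotype. Within Rpl22+/+, replicate 2 was at 0.603 times the mean of the other two.

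Eya3 had the highest TPM of the 7 genes in every library and the smallest log2 fold change of the 5 tested, while in CPM Dach1 was slightly above it in Rpl22+/+ replicates 1 and 3. It encodes the broadly expressed member of the family and lies on chromosome 4 from 132366298 to 132452076 (GRCm39, plus strand). Eya3 was at 54.1, 70.7 and 55.4 CPM in Rpl22+/+ and at 71.8, 63.3 and 66.5 CPM in Rpl22-/-. The genotypes overlapped, with means of 60.0 ± 9.22 and 67.2 ± 4.25 CPM (SD, n = 3 each) and a log2 fold change of 0.16 ± 0.15 (SE). The 734 genes of chromosome 4 with a mean of at least 50 reads had a median log2 fold change of 0.43. The same cut gave medians of -0.08 to 0.05 on the chromosomes of Six4, Six5, Eya1, Eya2 and Dach1. Over all genes tested, without that cut, the median was 0.07. The part of the shift of chromosome 4 in the value of Eya3 was not tested.

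Eya2, on chromosome 2 from 165436952 to 165613647 (GRCm39, plus strand), was close to the limit of detection. This coactivator drew 19, 30 and 12 reads in the Rpl22+/+ libraries against 2, 10 and 16 in the others. In CPM the genotypes did not overlap, at 0.160 to 0.405 against 0.0535 to 0.151. In TPM they did, at 0.0895 to 0.179 against 0.0638 to 0.158. The log2 fold change was -1.37 ± 0.54 (SE) in the counts and -0.24 on the log2(TPM + 0.1) scale. Eya4, linked to hearing and heart muscle, had 2 reads in Rpl22+/+ replicate 3 and none in the other 5 libraries. The 0 reads in each Rpl22-/- library allow up to 0.0802, 0.0300 and 0.0283 CPM (3 reads, counting error only).

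Dach1, the cofactor that can turn Six-family complexes toward repression, lies on chromosome 14 from 98024289 to 98407201 (GRCm39, minus strand). It was at 54.3, 42.1 and 57.1 CPM in the Rpl22+/+ libraries and at 0.668, 0.869 and 0.680 CPM in the Rpl22-/- libraries. The genotypes did not overlap, and the values within each lay close together. The mean fell from 51.2 ± 8.01 to 0.739 ± 0.113 CPM (SD, n = 3 each), which the fit put at a log2 fold change of -6.10 ± 0.22 (SE). Unlike Eya1, Dach1 stayed above the floor in every Rpl22-/- library, with 25, 87 and 72 estimated reads. Pooled over libraries, the Rpl22+/+ level was 67.7 times the Rpl22-/- level, with a 95% counting interval of 58.5 to 78.7. As with Eya1, replicate 2 was the lowest Rpl22+/+ library, at 0.755 times the mean of the other two.

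**Figure D1:**
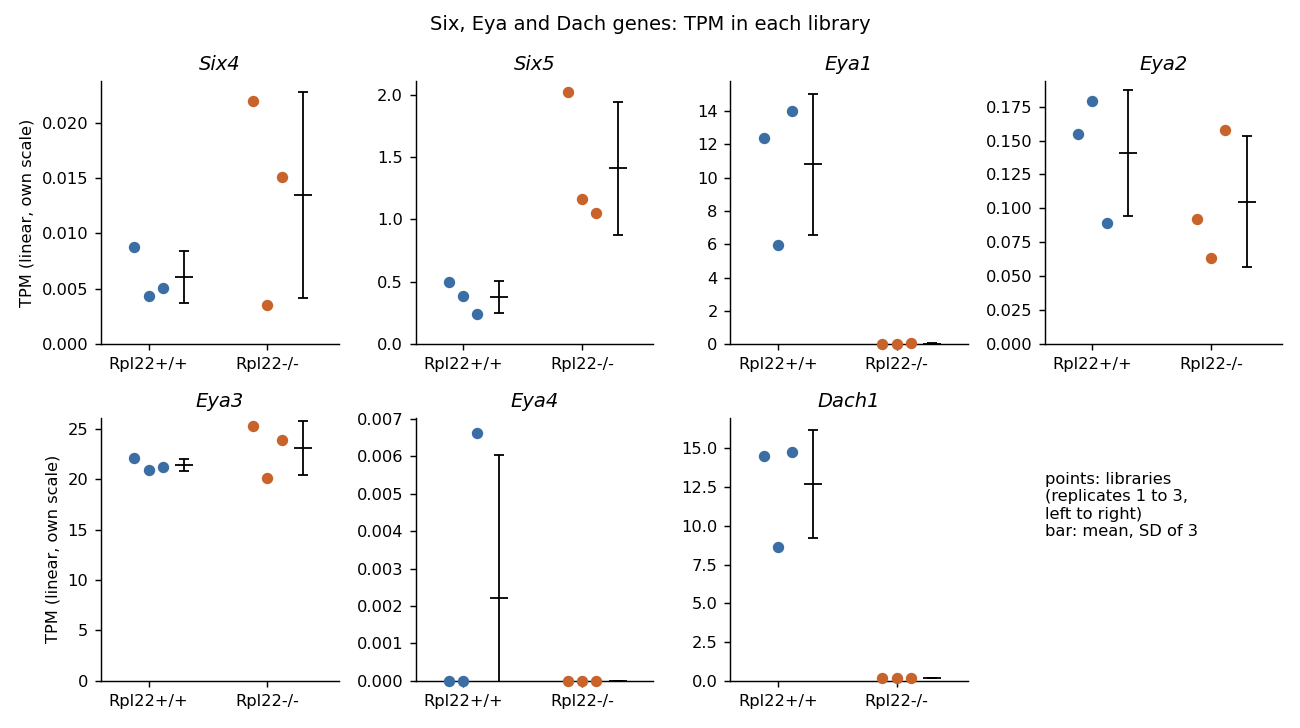
TPM of the 7 genes in each library (points, replicates 1 to 3 from left to right), with the mean and SD of 3 libraries, on a linear axis that starts at 0 and has its own scale for each gene. Eya1 and Dach1 sit between 5.97 and 14.8 TPM in Rpl22+/+ and at or below 0.211 TPM in Rpl22-/-, Six5 is higher in Rpl22-/- and Eya3 is near 21.4 and 23.1 TPM.

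In bulk RNA, fewer cells that express a gene and less RNA per cell cannot be told apart, and this holds for each of the 7 genes. The T cell markers moved with Eya1 and Dach1: their summed level was 49.5 to 67.8 CPM in Rpl22+/+ and 17.4 to 21.3 CPM in Rpl22-/-, and 6 of 6 were called lower. The erythroid markers moved the other way, from 53.6 to 82.5 CPM in Rpl22+/+ to 342 to 683 CPM in Rpl22-/-, with 4 of 5 called higher and Klf1 at 0 in 2 of 3 Rpl22-/- libraries. The stem and progenitor markers summed to 58.7 to 86.3 and 135 to 171 CPM, with 3 of 6 called higher (Kit, Cd34 and Gata2) and 2 lower (Flt3 and Hlf). The 7 markers of the sorted myeloid cells summed to 5280 to 7300 and 19400 to 23500 CPM, where Mpo and Elane were called higher and Itgam and Ly6g lower. The B cell markers, at 451 to 627 and 303 to 480 CPM, had 0 of 5 called by edgeR. The platelet markers were at 1.80 to 2.31 and 1.74 to 2.00 CPM, and those of stroma and endothelium at 4.60 to 5.09 and 2.97 to 4.88 CPM, where Kdr was called higher. The CD11b+Gr1+ sort should remove T, B, erythroid, platelet and stromal cells, and the part of any of these cell types in the levels of the network genes was not tested.

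Per transcript length, Eya3 stood first among the 7 genes in Rpl22+/+ cells, at 21.4 ± 0.625 TPM (SD, n = 3). Dach1 followed at 12.7 ± 3.48 and Eya1 at 10.8 ± 4.24 TPM, and these 2 genes overlapped between libraries. Six5 was at 0.377 ± 0.127 and Eya2 at 0.141 ± 0.0463 TPM, without overlap. Six4 and Eya4 came last, at or below 0.00878 TPM, and overlapped. In Rpl22-/- cells Eya3 again stood first, at 23.1 ± 2.70 TPM, but Six5 came next at 1.41 ± 0.532 TPM. Dach1 followed at 0.193 ± 0.0168 TPM, its lowest library at 0.177 against 0.158 in the highest of Eya2. Eya2, at 0.105 ± 0.0481, and Eya1, at 0.0402 ± 0.0537 TPM, overlapped, and Eya1 overlapped with Six4.

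Ranked against all genes with a TPM above 0 in the same library, Eya1 moved from percentiles 63.0 to 71.5 in Rpl22+/+ to percentiles 1.49 to 27.4 in Rpl22-/-. Dach1 moved from 67.2 to 72.4 to between 24.7 and 35.4. Six5 moved up from 35.1 to 41.0 to between 46.7 and 49.5, still in the lower part of the ranking. Eya3 held percentiles of 76.5 to 79.9 in all 6 libraries. The spread between libraries of a genotype, as the biological coefficient of variation of the fit, was 0.183 for Eya3, 0.210 for Dach1, 0.294 for Eya1, 0.363 for Six5 and 0.422 for Eya2. The median gene was at 0.255, so Eya3 and Dach1 were steadier than the median gene and Eya1, Six5 and Eya2 less so.

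The summed TPM of the 4 Eya genes was 34.7, 27.1 and 35.3 in Rpl22+/+ and 25.4, 20.1 and 24.2 in Rpl22-/-. The groups did not overlap, with means of 32.4 ± 4.57 and 23.2 ± 2.78 TPM (SD, n = 3 each). Eya1 made up 35.8%, 22.1% and 39.6% of the Eya sum in the Rpl22+/+ libraries. In the Rpl22-/- libraries it made up 0.0442%, 0.0362% and 0.422%, and Eya3 made up 99.6%, 99.6% and 98.9%. Over all 7 genes, Eya3 contributed 48.2% ± 8.51 of the TPM in Rpl22+/+ and 93.0% ± 1.33 in Rpl22-/- (SD, n = 3 each).

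**Figure D2:**
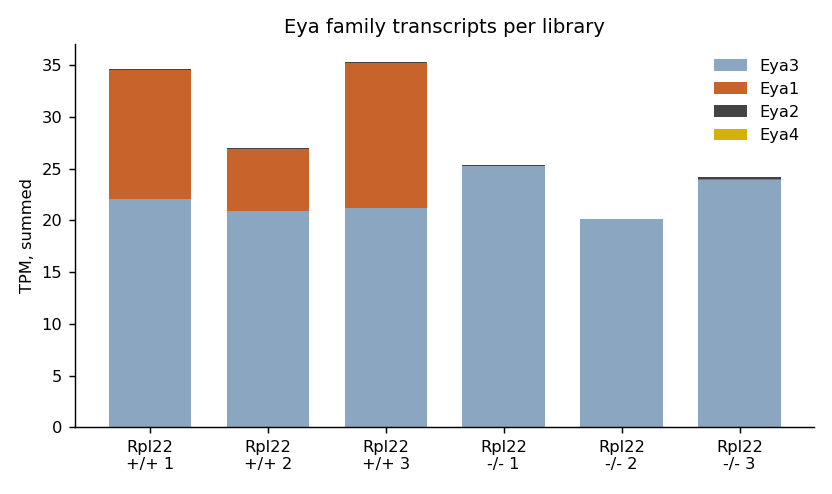
Stacked TPM of Eya3, Eya1, Eya2 and Eya4 in each of the 6 libraries, on a linear axis from 0. The Rpl22+/+ bars reach 27.1 to 35.3 TPM with a visible Eya1 part, and the Rpl22-/- bars reach 20.1 to 25.4 TPM and consist almost wholly of Eya3.

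Reads were also divided among annotated transcripts. In Rpl22+/+ cells Dach1-201 took 67.0% ± 2.23 (SD, n = 3) of the Dach1 reads, Dach1-202 27.5% ± 2.19 and the retained-intron transcript Dach1-203 5.53% ± 0.256. In Rpl22-/- cells Dach1-201 held 21.6, 87.0 and 30.6 estimated reads, and Dach1-202 held 0, 0 and 37.3. Replicate 3 was thus the one Rpl22-/- library with reads on both coding transcripts. Eya1 reads of Rpl22+/+ cells were spread over 9 transcripts, 8 of them coding, and were led by Eya1-201 at 46.9% ± 10.6, Eya1-203 at 28.6% ± 7.77, Eya1-209 at 11.8% ± 4.18 and Eya1-202 at 7.62% ± 1.81. Replicate 2, the library with the fewest Eya1 reads, was also the one in which Eya1-203 exceeded Eya1-201.

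Eya3 had enough reads in both genotypes for its transcripts to be set side by side. The coding transcript Eya3-203 took 80.0% to 83.1% of the Eya3 reads in Rpl22+/+ and 85.3% to 92.2% in Rpl22-/-. The noncoding Eya3-212 took 11.0% to 11.8% and 3.53% to 8.21%, and the genotypes overlapped in neither. Rpl22-/- replicate 3 lay nearest to the Rpl22+/+ libraries in both shares. The means were 81.1% ± 1.67 and 89.4% ± 3.60 for Eya3-203, and 11.3% ± 0.477 and 5.29% ± 2.55 for Eya3-212 (SD, n = 3 each). These shares are estimates by Salmon, which divides reads that fit several transcripts, and were not tested.

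**Figure D3:**
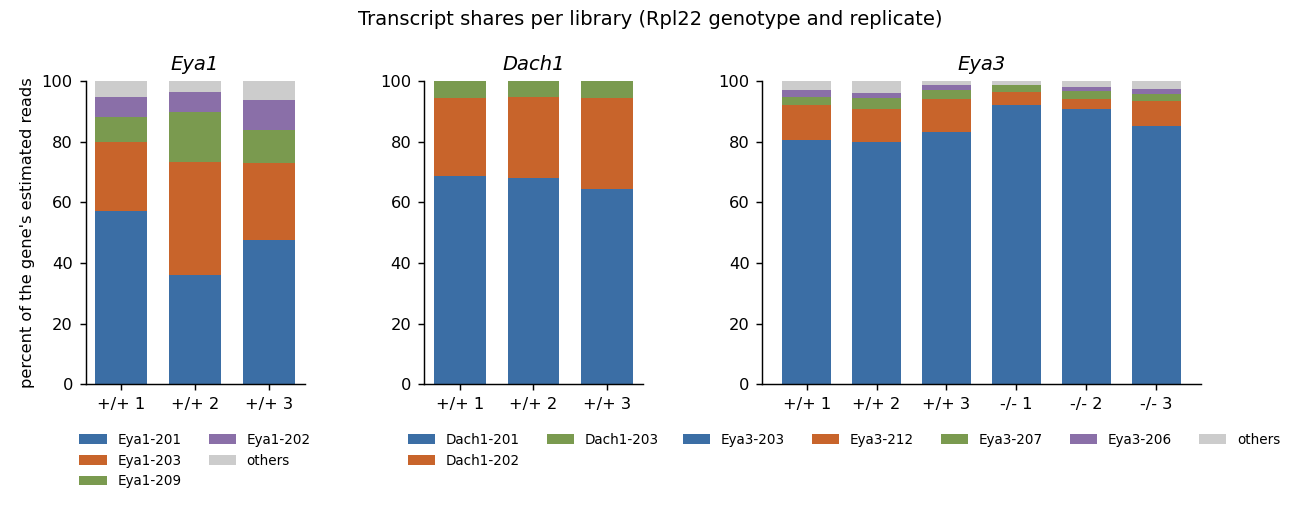
Percent of the estimated reads of Eya1, Dach1 and Eya3 that each annotated transcript took, per library; Eya1 and Dach1 are shown for Rpl22+/+ only, since fewer than 100 reads were left in each Rpl22-/- library. The Eya3-212 part is 11.0% to 11.8% in Rpl22+/+ and 3.53% to 8.21% in Rpl22-/-.

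The paralogs and Pax partners of the network were mostly silent. Of 13 such genes, 3 passed the filter. Of these 3, 2 were called lower and none higher, against 8.54% called lower of all genes tested. Pax2 passed through its Rpl22+/+ reads alone. A gene this low in Rpl22-/- is tested only if it is high in Rpl22+/+, so the share says little about the list. Pax8, a factor of thyroid and kidney development, drew 640, 980 and 716 reads in the Rpl22+/+ libraries against 20, 38 and 54 in the others. It fell from 10.6 ± 2.26 to 0.475 ± 0.0834 CPM (log2 fold change -4.49 ± 0.27 SE, edgeR adjusted p = 0.000118). Pax2, its close relative, had 33, 47 and 41 reads against 2, 0 and 0. The pooled Rpl22+/+ level of Pax2 was 67.2 times the Rpl22-/- level, with a 95% counting interval of 18.2 to 561 (edgeR adjusted p = 0.00848). Pax5, the B cell factor, was at 130 ± 26.4 and 74.3 ± 10.5 CPM, a log2 fold change of -0.81 ± 0.20 that did not reach the size asked for a call (edgeR adjusted p = 0.0232). The B cell markers, of which 0 of 5 were called by edgeR, were at log2 fold changes of -0.61 to -0.33, and the part of B cells in the level of Pax5 was not tested. The paralog Dach2 had 4, 4 and 7 reads in Rpl22+/+ and 0, 0 and 3 in Rpl22-/-, and Six3 had 9 reads over all Rpl22+/+ and 3 over all Rpl22-/- libraries.

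The binding partners and corepressors of the network were expressed and mostly level, except for Sobp, which was below the filter. Of 21 genes, 20 were tested and 1 was called, against 17.5% of all genes. Their median log2 fold change was -0.24, against 0.07 over all genes tested. The called gene was Smad4, the shared mediator of TGF-beta signals, which fell from 73.4 ± 6.81 to 31.6 ± 2.59 CPM (log2 fold change -1.22 ± 0.14 SE, edgeR adjusted p = 0.00125). Hdac1, a histone deacetylase of corepressor complexes, was at 134 ± 25.4 and 241 ± 22.2 CPM, and its log2 fold change of 0.85 ± 0.17 (edgeR adjusted p = 0.0133) was short of a call. The same held for the Groucho corepressor Tle1, at 0.91 ± 0.17 (edgeR adjusted p = 0.00993). Tle1 passed the size for a call when Rpl22+/+ replicate 2 was left out, which brought the list to 2 called genes. The Dach relatives Ski and Skil were at log2 fold changes of -0.26 ± 0.19 and -0.24 ± 0.45 and were not called (edgeR adjusted p = 0.358 and 0.755).

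Of 16 genes named in the literature as targets of Six-family, Eya or Dach proteins, 9 were tested, 2 were called higher and 1 lower, with a median log2 fold change of -0.25. The share called was 33.3%, against 17.5% of all genes tested. The other 7 genes were below the filter, and Mycn passed it through its Rpl22+/+ reads alone, so the filter can raise this share. Myc, the growth regulator, rose from 36.1 ± 7.59 to 125 ± 6.89 CPM (log2 fold change 1.79 ± 0.18 SE, edgeR adjusted p = 0.000804). Ccnd1, which encodes cyclin D1 and is known as a gene that Dach1 can repress, rose from 4.93 ± 1.58 to 15.9 ± 3.46 CPM (log2 fold change 1.70 ± 0.28 SE, edgeR adjusted p = 0.00594). Mycn, the Myc paralog, went the other way, from 48, 74 and 43 reads to 1, 3 and 1. Its pooled Rpl22+/+ level was 36.7 times the Rpl22-/- level, with a 95% counting interval of 15.4 to 114 (edgeR adjusted p = 0.00107). The membrane linker gene Ezr was at a log2 fold change of -0.38 ± 0.19 and was not called (edgeR adjusted p = 0.205).

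Of 12 genes of the Mll-AF9 program, 12 were tested, 3 were called higher and none lower, with a median log2 fold change of 0.36. That was 3 of 12, against 17.5% of all genes tested. Mecom, a stem cell regulator, rose from 3.46 ± 0.749 to 95.5 ± 8.30 CPM (log2 fold change 4.78 ± 0.22 SE, edgeR adjusted p = 5.5e-05). Hoxa5 rose from 11.6 ± 1.40 to 46.5 ± 2.08 CPM (log2 fold change 2.01 ± 0.15 SE, edgeR adjusted p = 0.00025). The kinase gene Cdk6 rose from 304 ± 97.8 to 1190 ± 472 CPM (log2 fold change 1.97 ± 0.36 SE, edgeR adjusted p = 0.00864). The core targets Hoxa9 and Meis1 were at 0.38 ± 0.12 and -0.06 ± 0.13 and were not called (edgeR adjusted p = 0.0516 and 0.778). Without Rpl22+/+ replicate 2 the list held 5 called genes, Zeb2 and Jmjd1c being added. Zeb2, at -1.18 ± 0.38 (edgeR adjusted p = 0.0602), was also called by DESeq2 and with the replicate number as a block (adjusted p = 0.0234, from 0.00138 to 0.198 over its 14 alternatives).

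**Figure D4:**
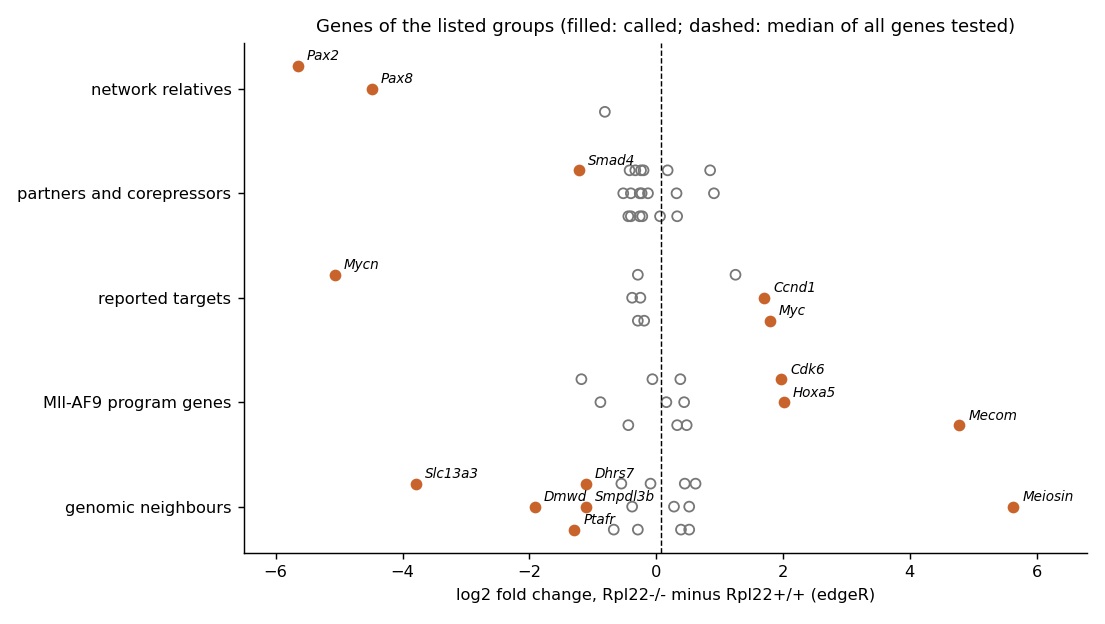
Log2 fold change (Rpl22-/- minus Rpl22+/+, edgeR) of the tested genes of 5 lists, 1 point a gene; filled points were called and are named, and the dashed line is the median of all genes tested, 0.07. Most partners and corepressors lie near that line, while Pax2, Pax8 and Mycn lie below -4 and Mecom and Meiosin above 4.

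The genes beside the network genes were described as well, up to 2 tested genes on each side within 500 kb. No tested gene lay within that distance of Dach1, and 1 did for Eya1, the muscle repressor gene Msc at 443 kb, which was not called (edgeR adjusted p = 0.265). Of all 17 neighbours, 1 was called higher and 5 lower, 35.3% against 17.5% of all genes tested, with a median log2 fold change of -0.29. Around the raised Six5 the neighbours went separate ways. Dmpk, 0.773 kb before it (at lower coordinates), was at 0.872 ± 0.247 and 0.717 ± 0.135 CPM (edgeR adjusted p = 0.572). Dmwd, 11.8 kb before it, fell from 4.77 ± 0.717 to 1.25 ± 0.469 CPM (log2 fold change -1.91 ± 0.33 SE, edgeR adjusted p = 0.00647). Meiosin, a gene of meiotic entry that lies 0.497 kb after Six5 on the other strand and points toward it, had 0, 0 and 2 reads in Rpl22+/+ and 28, 40 and 49 in Rpl22-/-. Its pooled Rpl22-/- level was 52.6 times higher, with a 95% counting interval of 14.3 to 440 (edgeR adjusted p = 0.0046). Meiosin passed the filter through its Rpl22-/- reads alone, so its part in the share of called neighbours depends on the filter.

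Around the level Eya3, Ptafr, the receptor of platelet-activating factor, lay 56.3 kb away and fell from 70.8 ± 9.22 to 29.1 ± 5.34 CPM (edgeR adjusted p = 0.00296). Smpdl3b, a lipid phosphodiesterase gene 8.20 kb after Eya3, was lower at 5.64 ± 1.92 and 2.61 ± 0.361 CPM (edgeR adjusted p = 0.0274). Its call was lost under 7 of 14 alternatives, among them leaving out Rpl22+/+ replicate 2 or 3 or Rpl22-/- replicate 1 or 3. Xkr8, 0.132 kb after Eya3, was not called (log2 fold change -0.09 ± 0.20, edgeR adjusted p = 0.781). Beside Eya2, the dicarboxylate carrier gene Slc13a3 at 122 kb fell from 5.72 ± 1.95 to 0.414 ± 0.0213 CPM (log2 fold change -3.79 ± 0.32 SE, edgeR adjusted p = 0.000426). Zmynd8, at 12.4 kb, was at 0.39 ± 0.12 (edgeR adjusted p = 0.0477), short of the size for a call. Beside Six4, Dhrs7 at 435 kb was lower (log2 fold change -1.11 ± 0.15, edgeR adjusted p = 0.00222), a call lost without a composition factor and on log2(TPM + 1), and Mnat1 at 10.3 kb was not called (edgeR adjusted p = 0.281). The other neighbours were Ppm1a and Trmt5 beside Six4, Fbxo46 beside Six5, Trp53rka and BC046401 beside Eya2 and Dnajc8 beside Eya3, and they were not called, at log2 fold changes of -0.67 to 0.62.

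**Figure D5:**
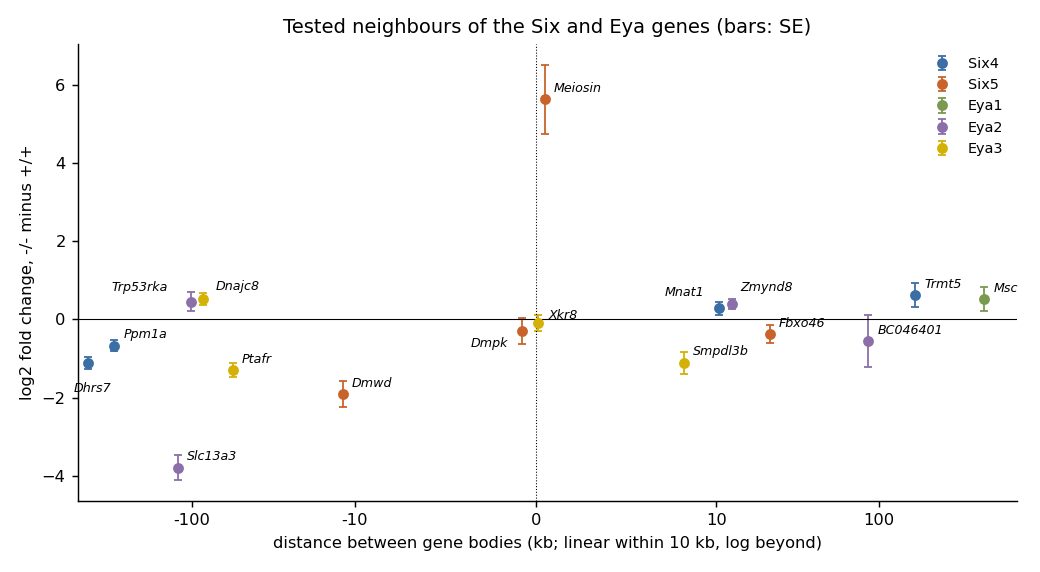
Log2 fold change with its SE of the 17 tested neighbours against their distance from the network gene in kb (negative: before it in chromosome order), coloured by the network gene; the distance axis is linear within 10 kb and logarithmic beyond. Meiosin stands alone above the others, and Slc13a3 and Dmwd lie lowest.

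Genes with a pattern like that of each network gene were found from log2 CPM centred over the 6 libraries, by the root mean square (RMS) difference. Dach1 was nearest to Eps8l1, Ppm1e and Olr1, at 0.18, 0.21 and 0.29, and 17 genes in all lay within 0.5. Eya1 had none within 0.5, and the nearest were Hpse2, Ugt1a8 and Hdc at 0.54, 0.54 and 0.70. Ugt1a8 shares exons with other Ugt1a genes, so its reads are uncertain. In Hpse2, a heparanase relative, Rpl22+/+ replicate 2 was the highest of its group, at 16.3 CPM, where Eya1 was lowest. Six5 was nearest to Spocd1, Ttyh1 and Cyp4f39 at 0.09, 0.16 and 0.19, with 475 genes within 0.5. Eya2 was nearest to Dusp14, Adgra2 and Cd209a at 0.18, 0.18 and 0.21, with 1048 within 0.5. Eya3 had 8340 genes within 0.5, led by Senp3, Rbm4 and Nbeal2, so its flat pattern was a common one. The measure follows the difference between genotypes that chose these genes.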

How the data were processed

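RNA from 6 libraries of CD11b+Gr1+ splenocytes was prepared with a stranded mRNA kit after poly(A) selection and sequenced on an Illumina NextSeq instrument. The authors used Trimmomatic for trimming and Salmon for quantification against GRCm39; tool versions and the transcript set are not given in the sources used here. The authors deposited, per library and transcript, estimated counts (reads that Salmon assigned) and TPM (scaled by transcript length to a fixed library total). A table of the authors' own comparison was used for gene positions and symbols only; it also holds fold changes and p-values, which were not used.

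Transcripts were summed to genes by identifier through GENCODE vM21: 136036 of 276623 transcripts matched, with 98% of reads in each library. Estimated counts were rounded, filtered with filterByExpr, scaled by TMM and fitted with the edgeR quasi-likelihood test (edgeR 4.0.16, R 4.3.3) on genotype alone. Groups came from sample titles. P-values were adjusted over all 16656 tested genes (Benjamini-Hochberg). CPM use TMM-scaled totals; fold changes of the fit are Rpl22-/- minus Rpl22+/+. Pooled ratios carry exact conditional 95% intervals, which cover counting error only, and 3 reads were taken as the floor. The fit was tested on simulated data. No libraries agreed within sampling noise.

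The genes and lists were chosen with earlier results of these data known. Named were the network genes, Rpl22, called genes of each list, the neighbours and the 3 nearest patterns; other list genes were added as examples after their values were seen. Of the network, 1 further gene is not reported here; network genes were left out of the neighbours. Alternatives were DESeq2 (1.42.0) size factors and test, no composition factor, no filter, limma-voom (limma 3.58.1), limma on log2(TPM + 1) and log2(TPM + 0.1), a replicate block and leaving out each library.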

Additional observations from a re-analysis of the deposited data

How the results depend on the processing

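The direction of Six5, Eya1, Eya2, Eya3 and Dach1 held under all 14 alternatives. The log2(TPM + pseudocount) scales change the unit and the pseudocount together, and their separate parts were not tested. On the log2(TPM + 1) and log2(TPM + 0.1) scales the log2 fold change was -3.43 and -6.25 for Eya1, -3.48 and -5.41 for Dach1 and -0.05 and -0.24 for Eya2, and on the first of these it was 0.79 for Six5, which was no longer called. On log2(TPM + 1) the calls fell to 1605 genes (906 higher, 699 lower) from 2911, to 3 of the neighbours and to 1 of the network relatives, and Meiosin, Mycn and Pax2 were among the genes no longer called. On log2(TPM + 0.1) 1560 genes were called higher and 1092 lower, in place of 1488 and 1423. Without a composition factor these were 1792 and 1210, 4 neighbours and 2 partners and corepressors were called, Eya3 was at 0.30, and the median of all genes was 0.19 in place of 0.07.

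Leaving out each library gave -9.97 to -8.78 for Eya1, -6.27 to -6.02 for Dach1, 1.5 to 1.95 for Six5, -1.76 to -1.02 for Eya2 and 0.09 to 0.25 for Eya3. It gave 2218 to 3431 called genes (1031 to 1708 higher, 1177 to 1723 lower). It gave 3 to 5 called Mll-AF9 program genes, 1 to 2 partners, 3 to 4 reported targets (Vegfc being added without Rpl22+/+ replicate 2), 5 to 6 neighbours and 2 relatives.

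Same-numbered libraries of the 2 genotypes deviated together with correlations of 0.57, 0.715 and 0.129 over the 13202 genes that averaged 50 reads or more, and of 0.479, 0.634 and 0.0974 over all tested genes. Rpl22+/+ replicate 3 correlated better with Rpl22-/- replicate 1 (0.43), so the numbers were not taken to pair the libraries. With the replicate block 3179 genes were called (1691 higher, 1488 lower), the log2 fold change was -9.14 for Eya1, -6.09 for Dach1, 1.79 for Six5, -1.35 for Eya2 and 0.17 for Eya3, and of the list genes the call of Zeb2 alone changed. An alternative assignment of transcripts to genes was not run, since 1 assignment was at hand. Depth limits what can be said of Six4, Eya2 and Eya4, and of Eya1 in Rpl22-/-.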
